A study of Solanum lycopersicum and Solanum pimpinellifolium with 9 samples.

Results

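Ripe fruit was compared with leaf in LA0722, an accession of Solanum pimpinellifolium, the wild red-fruited currant tomato. The ripe fruit library came from fully expanded red fruit and the leaf library from fully expanded leaves 2 to 4 weeks old. Both came from greenhouse plants kept on days of 16 h light and nights of 8 h. The other 7 libraries of the series came from MoneyMaker, a cultivar of the domesticated tomato Solanum lycopersicum: mature green fruit, breaker fruit (the stage at which colour starts to turn), ripe fruit, leaf 2 to 3 weeks old, upper stem, root and open flower without sepals. A gene entered the comparison when it reached 25 RPKM in either LA0722 library, and 7551 of the 34727 gene IDs did so. RPKM counts the reads of a gene relative to its length and to the depth of its library. The lowest maximum inside this limit was 25 RPKM and the highest outside it 24.97 RPKM. Of the genes left out, 8301 stood below 25 RPKM in both libraries and above 0 in at least 1 of them, and 18875 were listed at 0 in both.

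Leaf is the main photosynthetic organ of the plant. Its mesophyll cells are filled with chloroplasts, and transcripts for light harvesting and carbon fixation are known to be among its most abundant. A tomato fruit is green and also photosynthetic while it grows. At ripening, which in tomato is driven by ethylene and by a small group of transcription factors, chlorophyll is broken down, chloroplasts become chromoplasts that store the red carotenoid lycopene, and enzymes loosen the cell walls. The deposited table lists genes by ID and does not pair the IDs with gene names, and none of its IDs is in the reference gene table used here. The defining markers of leaf and of ripe fruit could therefore not be looked up by name, and the labelled tissues were checked with gene sets taken from MoneyMaker libraries instead.

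Each library stood alone in its group, so no difference could be set against the spread between plants, and no test was run. The labels give no number of plants per library. The RPKM steps implied totals of 211201 reads assigned to genes in LA0722 ripe fruit and 300892 in LA0722 leaf, within a range of 211201 to 380306 over the 9 libraries. At a coding length of 1 kb, 3 reads were worth 14.2 RPKM in LA0722 ripe fruit and 9.97 RPKM in LA0722 leaf. A gene listed at 0 may therefore have been present below that level, and the limit is higher in ripe fruit. In whole organs, fewer cells of a type and less RNA per cell cannot be told apart.

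Ripe fruit and leaf of LA0722 differed by at least 4-fold in 2921 genes, in near-equal numbers each way over all genes compared. The difference of log2(RPKM + 5) was taken as ripe fruit minus leaf, and a gene was called higher or lower when this reached 2 log2 units, a 4-fold difference. Because 5 RPKM is added on both sides, folds of genes with low levels come out too small. In ripe fruit 1458 genes were higher, 19.3% of those compared, and 1463 were lower, 19.4%, so that 38.7% were called either way. The remaining 4630 genes were called neither way. Among genes with at least 10 reads in the library where they were higher, the numbers were less equal, 867 higher and 1141 lower, with a median difference of -0.27. That limit is not alike on both sides. LA0722 ripe fruit had fewer reads, 211201 against 300892 in leaf, so at equal length 10 reads stand for a higher RPKM there. With a minimum of 100 RPKM instead, 616 were higher and 596 lower. The part of depth was not tested. The median difference over all genes compared was 0.02, with quartiles of -1.49 and 1.48. Only 2707 genes, 35.9%, lay within 1 log2 unit of equal levels, and another 1923 lay beyond 1 unit without reaching 2. The plot of ripe fruit against leaf shows both wings of the distribution.

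**Figure D1:**
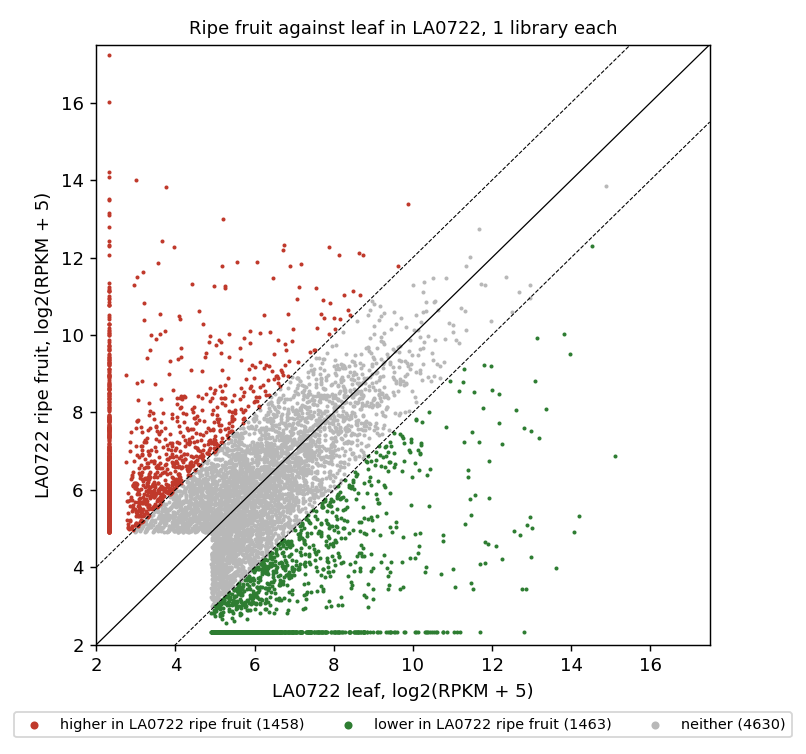
Each point is a gene that reached 25 RPKM in LA0722 ripe fruit or LA0722 leaf. The vertical axis is log2(RPKM + 5) in ripe fruit and the horizontal axis the same in leaf, with 1 library each. The solid line marks equal levels and the dashed lines a difference of 2 log2 units. The 1458 genes higher and the 1463 genes lower in ripe fruit form wings of similar size, and the ripe fruit wing reaches further, to a difference of 14.9.

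Differences of 4 log2 units or more were somewhat more frequent toward ripe fruit among the 7551 genes compared. A difference of 4 log2 units or more was found for 406 higher and 355 lower genes, and one of 6 units or more for 128 higher and 94 lower genes. At 3 units or more the numbers were close, 844 and 832. They were also close, 436 and 439, for called genes whose 95% counting interval of the fold lay beyond 4. Among the 279 genes that reached 1000 RPKM in either library, 101 were higher and 101 lower in ripe fruit, 36.2% each way. Among the 4712 genes whose higher library stood between 25 and 100 RPKM, 17.9% were higher and 18.4% lower. Near 25 RPKM the added 5 RPKM lets a gene be called only when the other library is close to 0, so the shares at low and high levels cannot be compared directly.

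Solyc07g049140 had the largest difference toward ripe fruit, 14.90 log2 units. It stood at 153272 RPKM in LA0722 ripe fruit (9420 reads) and was listed at 0 in LA0722 leaf. With leaf taken at a floor of 3 reads, and the ripe fruit reads as exact, it was 4473-fold higher. Its level in MoneyMaker was 35856 RPKM in fruit at the mature green stage, 64802 RPKM at breaker and 103487 RPKM when ripe. It had 32.2 RPKM in flower (2 reads) and 30.5 RPKM in root (3 reads), and was listed at 0 in leaf and stem. The gene was therefore high in all 4 fruit libraries and at or near 0 in all 5 others.

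Solyc10g017980 followed with a difference of 13.71. It stood at 66929 RPKM in LA0722 ripe fruit (2714 reads) and was listed at 0 in LA0722 leaf, 1289-fold higher by the same floor. MoneyMaker fruit had 4969 RPKM when mature green, 10581 RPKM at breaker and 33237 RPKM when ripe, and no read was listed in leaf, stem, root or flower. Both genes had short inferred coding lengths, 291 and 192 nt. Where the length of a gene model leaves out untranslated ends, the RPKM of short genes is inflated, alike in each library.

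The 20 genes with the largest difference toward ripe fruit ran from 8.82 to 14.90 log2 units. They stood between 2262 and 153272 RPKM in LA0722 ripe fruit, on at least 60 reads each. In LA0722 leaf 18 of them were listed at 0 and the highest stood at 8.63 RPKM. Together they took 26.7% of the summed RPKM of the ripe fruit library, and 8 of them had coding lengths under 300 nt. Of all genes compared 20.3% were called higher in MoneyMaker ripe fruit than in leaf, and of the 1458 higher genes 40.5%. Of the 20 genes, 19 were so called. The exception, 11th by size, stood at 5466 RPKM in LA0722 ripe fruit and at 0 in LA0722 leaf, but was listed at 0 in both ripe fruit and leaf of MoneyMaker and at 253 RPKM in its mature green fruit.

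Some of these leading genes were far more abundant in LA0722 than in MoneyMaker ripe fruit. The third gene by size had 18939 RPKM in LA0722 ripe fruit (4248 reads), against 157 RPKM (45 reads) in MoneyMaker ripe fruit, and was listed at 0 in the leaf of both. The eighth had 9115 RPKM in LA0722 ripe fruit and 83.1 RPKM in MoneyMaker ripe fruit, and the ninth 8695 and 258 RPKM. Both had more in MoneyMaker breaker fruit, 1414 and 1264 RPKM. Others ran close together, such as the fourth, with 17185 RPKM in LA0722 and 12830 RPKM in MoneyMaker ripe fruit, at 0 in both leaves and in mature green fruit. These genes were picked by their values.

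Solyc12g099650 had the largest difference toward leaf. It was listed at 0 in LA0722 ripe fruit, while LA0722 leaf had 7191 RPKM (740 reads), a difference of -10.49, at least 173-fold lower in ripe fruit. MoneyMaker fruit had 135 RPKM when mature green, 40.9 RPKM at breaker and 0 when ripe, and MoneyMaker leaf had 6128 RPKM. The level was 703 RPKM in stem, 41.0 RPKM in flower and 8.65 RPKM in root. Both leaves were high, stem was intermediate, and the level was lower at each later fruit stage.

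Solyc07g066150 stood at 10.7 RPKM in LA0722 ripe fruit, a single read, and at 12600 RPKM in LA0722 leaf (1672 reads), a difference of -9.65. The level in ripe fruit was 1174-fold lower, with a 95% exact interval of 210 to 46380 that covers counting error only. MoneyMaker fruit had 451 RPKM when mature green, 402 RPKM at breaker and 16.8 RPKM when ripe, and MoneyMaker leaf had 13612 RPKM. Stem had 2624 RPKM, flower 74.3 RPKM and root 13.4 RPKM. As for Solyc12g099650, both leaves were high, stem came next and mature green fruit after it.

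The 20 genes with the largest difference toward leaf ran from 8.12 to 10.49 log2 units in size. They stood between 1386 and 35153 RPKM in LA0722 leaf, on at least 50 reads each, and 13 of them were listed at 0 in LA0722 ripe fruit. They took 10.5% of the summed RPKM of the leaf library. In MoneyMaker 18 were also called lower in ripe fruit than leaf, against 36.8% of all lower genes and 9.61% of all genes compared. Of the other 2, one had no read in LA0722 ripe fruit against 1852 RPKM in LA0722 leaf, but 30.3 RPKM in MoneyMaker ripe fruit against 129 RPKM in its leaf. The second had no read in LA0722 ripe fruit against 1417 RPKM in leaf, but 95.5 RPKM in MoneyMaker ripe fruit against 217 RPKM in leaf, with its highest MoneyMaker level, 1338 RPKM, in root.

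Much of the calling rested on genes listed at 0 on one side. In ripe fruit 765 of the 1458 higher genes (52.5%) were listed at 0 in leaf, and 757 of the 1463 lower genes (51.7%) were listed at 0 in ripe fruit. The higher genes had a median of 12 reads in ripe fruit and the lower genes a median of 22 reads in leaf, and 867 and 1141 of them had 10 reads or more. The exact 95% counting interval of the fold lay beyond 1 for 1184 higher genes (15.7% of genes compared) and 1222 lower genes (16.2%), and beyond 4 for 436 and 439 genes. The inferred coding length had a median of 678 nt in the higher genes, 861 nt in the lower genes and 849 nt in all genes compared. The shortest length that fits was kept, so lengths of genes seen in few libraries can be too short. Length sets how many reads a given RPKM stands for, and its part in the calls was not tested.

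The called genes made up the bulk of neither library by number but held large parts of both by abundance. The 1458 higher genes took 54.0% of the summed RPKM in LA0722 ripe fruit and 1.55% in LA0722 leaf. The 1463 lower genes took 2.27% in LA0722 ripe fruit and 48.4% in LA0722 leaf. These shares follow from how the genes were chosen. Without the 2 named genes of each direction the higher genes took 38.0% of ripe fruit and the lower genes 46.9% of leaf. The named genes were picked by difference and not by abundance, so these removals are not alike. The 5 most abundant of the higher genes took 19.8% of ripe fruit, and the 5 most abundant of the lower genes 8.57% of leaf. By RPKM, ripe fruit thus depended more on a few transcripts, of which the 2 named ones are short. The 10 most abundant genes took 24.4% of ripe fruit and 14.5% of leaf, and 9 of the 10 were called toward their own organ in each.

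The same genes were then followed in the MoneyMaker libraries, which took no part in choosing them. The genes higher in LA0722 ripe fruit made up 22.4% of the RPKM sum when MoneyMaker fruit was mature green, 37.0% at breaker, 38.4% when it was ripe and 2.96% in MoneyMaker leaf. Without the 2 named genes these shares were 19.3%, 31.8% and 29.8% over the fruit stages. The genes lower in LA0722 ripe fruit made up 11.2% when mature green, 7.52% at breaker and 4.49% when ripe, against 57.9% in MoneyMaker leaf and 23.3% in stem. In root the higher genes held 7.63% and the lower genes 14.8%. In flower the higher genes took 34.1% of summed RPKM and the lower genes 5.82%. The 5 most abundant of the higher genes in flower took 13.1% of its summed RPKM. By number of genes at 25 RPKM or more flower showed no such excess. Of the higher genes 6.72% had their highest MoneyMaker level in flower, against 4.65% of all genes compared.

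**Figure D2:**
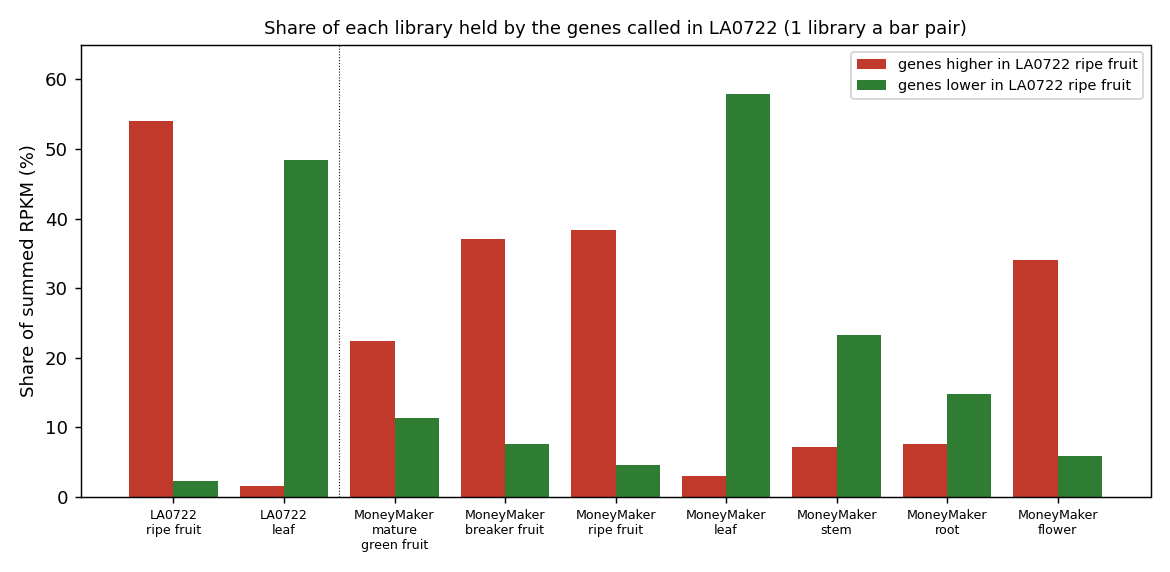
Bars give the share of summed RPKM (%) that genes higher (left bar) and lower (right bar) in LA0722 ripe fruit than in LA0722 leaf took in each of the 9 libraries. The dotted line separates the 2 LA0722 libraries, in which the genes were chosen, from the 7 MoneyMaker libraries. Higher genes took 38.4% of MoneyMaker ripe fruit and 34.1% of flower, and lower genes 57.9% of MoneyMaker leaf.

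By number of genes the picture in MoneyMaker was less sharp. Of the genes higher in LA0722 ripe fruit, 804 (55.1%) stood at 25 RPKM or more in mature green fruit of MoneyMaker, 925 (63.4%) in breaker and 970 (66.5%) in ripe fruit. Over all genes compared these shares were 66.3%, 62.4% and 62.8%, so the higher genes stood out little in ripe and breaker fruit and were less often present in mature green fruit. In MoneyMaker leaf 370 of them (25.4%) reached that level, against 48.4% of all genes compared. Of the genes lower in LA0722 ripe fruit, 406 (27.8%) reached it in MoneyMaker ripe fruit and 877 (59.9%) in MoneyMaker leaf. In root 45.2% of the higher and 51.2% of the lower genes were present, below the 60.8% of all genes compared. In flower 28.8% of the higher and 24.5% of the lower genes were present, against 30.2% of all genes compared.

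**Figure D3:**
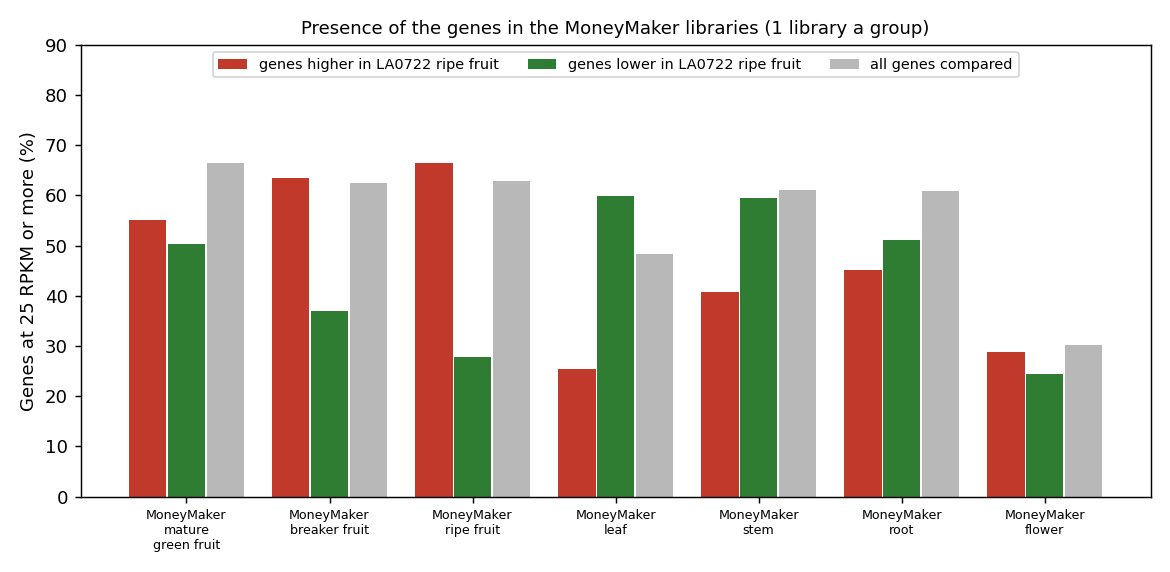
Bars give the percentage of genes at 25 RPKM or more in each MoneyMaker library, for genes higher in LA0722 ripe fruit than in LA0722 leaf (left), genes lower (middle) and all genes compared (right). In ripe fruit the values were 66.5%, 27.8% and 62.8%, and in leaf 25.4%, 59.9% and 48.4%.

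The MoneyMaker library with the highest level differed between both groups of genes. Of the higher genes, 170 (11.7%) peaked in mature green fruit of MoneyMaker, 336 (23.0%) in breaker and 429 (29.4%) in ripe fruit. Another 124 (8.5%) peaked in root, 98 (6.72%) in flower, 66 (4.53%) in stem and 19 (1.30%) in leaf. Of the lower genes, 70 (4.78%) peaked in ripe fruit, 419 (28.6%) in leaf, 259 (17.7%) in root and 234 (16.0%) in stem. Over all genes compared 15.1% peaked when fruit was mature green, 13.3% at breaker and 22.5% when it was ripe, and 9.84% in leaf, 13.7% in root, 10.6% in stem and 4.65% in flower. A further 216 higher genes (14.8%) and 213 lower genes (14.6%) stayed under 25 RPKM in all 7 MoneyMaker libraries, against 10.3% of all genes compared, and 26 and 14 of these were listed at 0 in every one of them.

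The labelled tissues were checked with sets chosen in MoneyMaker without any LA0722 library. The leaf set held 447 genes with at least 25 RPKM in the leaf of MoneyMaker and a level 2 log2 units above root, stem and flower. In LA0722, 277 of them reached 25 RPKM in either library. Of these, 195 (70.4%) were lower in LA0722 ripe fruit, 7 were higher and 75 were neither, with a median difference of -3.34 against 0.02 over all genes compared. The set took 1.78% of summed RPKM in LA0722 ripe fruit and 24.8% in LA0722 leaf. The corresponding shares were 0.78% in MoneyMaker ripe fruit and 46.4% in the MoneyMaker leaf library that chose the set.

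The ripening set held 689 genes that stood at 25 RPKM or more in MoneyMaker breaker fruit and 2 log2 units above mature green fruit. In LA0722, 420 of them reached 25 RPKM in either library, of which 258 (61.4%) were higher in LA0722 ripe fruit, 55 were lower and 107 were neither. Their median difference was 2.95. The set took 20.3% of summed RPKM in LA0722 ripe fruit and 2.97% in LA0722 leaf. Members that passed the minimum in 1 library only had to differ. With no minimum level, genes listed above 0 in either library were counted. The medians were then -2.57 for the leaf set and 1.96 for the ripening set, against -0.20 for all genes. In both readings the leaf set lay toward LA0722 leaf and the ripening set toward LA0722 ripe fruit.

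**Figure D4:**
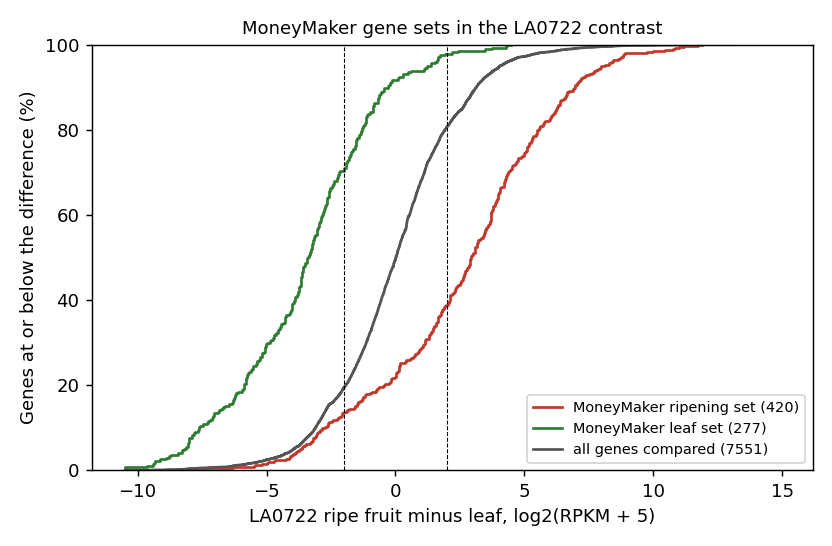
The horizontal axis is the difference of log2(RPKM + 5), LA0722 ripe fruit minus LA0722 leaf, and the vertical axis the percentage of genes at or below it, for the 420 compared genes of the MoneyMaker ripening set, the 277 of the leaf set and all 7551 compared. Dashed lines mark 2 log2 units either way. The ripening set lies to the right of all genes, with a median of 2.95, and the leaf set to the left, with a median of -3.34.

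The step from mature green to breaker fruit in MoneyMaker, from which the ripening set was drawn, was also read in both directions for the genes called in LA0722. At this step 1052 of the genes higher in LA0722 ripe fruit could be compared, and 258 of them (24.5%) were higher and 80 (7.60%) lower in breaker fruit. These 258 genes, and the 55 in the next sentence, are the members of the ripening set already counted above. Of the 818 lower genes that could be compared, 55 (6.72%) were higher and 182 (22.2%) lower in breaker fruit. Over the 5701 of all genes, 7.37% were higher and 7.44% lower, and over every gene of the table compared at that step the shares were 8.51% and 11.5%. From mature green to ripe the median difference was 0.70 for the higher genes, -1.31 for the lower genes and 0.09 for all genes. Of the genes that set ripe fruit apart from leaf in LA0722, 714 of the 1052 higher and 581 of the 818 lower genes were called neither way between mature green and breaker fruit. Over all genes compared this was a larger share, 4857 of 5701, so the called genes were called at this step more often than genes in general.

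The contrast of ripe fruit with leaf was also taken in MoneyMaker, with which it shared no library. The MoneyMaker column used for ripe fruit is named for a berry with a number and was matched to that sample by elimination. The column used for mature green fruit is named only as mature, and the ripening set and every mature green value rest on that match. In MoneyMaker ripe fruit 2008 genes were higher (26.4%) and 1416 lower (18.6%) than in leaf among 7616 compared. The median difference there was 0.98, against 0.02 in LA0722. That balance depended on scaling in MoneyMaker and not in LA0722. Of the called genes 58.6% were higher in MoneyMaker as deposited, 51.7% after sums were made equal, 46.5% after scaling to the upper quartile and 30.9% after division by median-ratio size factors. The share in LA0722 stayed between 47.8% and 50.6% under the same settings. Median-ratio size factors shifted the MoneyMaker difference by -0.996 log2 units, upper-quartile scaling by -0.40 and equal sums by -0.24, while no scaling shifted the LA0722 difference by more than 0.09.

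Of the genes higher in LA0722 ripe fruit, 590 were also higher in MoneyMaker ripe fruit, which is 40.5% of the LA0722 list and 29.4% of the MoneyMaker list. Of the genes lower in LA0722, 539 were also lower in MoneyMaker, 36.8% of the LA0722 list and 38.1% of the MoneyMaker list. Among all genes compared in LA0722, 20.3% were higher and 9.61% lower in MoneyMaker. The genes higher in both held 44.8% of summed RPKM in LA0722 ripe fruit and 0.92% in LA0722 leaf, so they carried most of the 54.0% given above. The genes lower in both held 1.16% in LA0722 ripe fruit and 34.9% in LA0722 leaf. The genes higher in both had medians of 159 RPKM in LA0722 ripe fruit and 3.35 RPKM in LA0722 leaf, and of 155 RPKM in MoneyMaker ripe fruit and 4.94 RPKM in MoneyMaker leaf. The genes lower in both had medians of 126 RPKM in LA0722 leaf and 166 RPKM in MoneyMaker leaf, and of 0 RPKM in ripe fruit of either species. Both lists were chosen for passing the same limits in each species. Which list was longer depended on scaling: 526 genes were higher and 626 lower in both after scaling to the upper quartile, 524 and 586 once sums were equal, and 419 and 697 by median-ratio size factors.

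Of the 1458 higher genes, 456 (31.3%) were under 25 RPKM in both MoneyMaker ripe fruit and leaf, against 25.1% of all genes compared in LA0722. Of the 1002 compared there, 394 were called neither way, with a median MoneyMaker difference of 1.08. Over all genes compared in both species a larger share, 3396 of 5657, was called neither way, with a median of 0.82. Of the 1463 lower genes, 475 (32.5%) were under the minimum, and 375 of the 988 compared were called neither way, with a median of -0.42. Over the 5657 genes compared in both species the differences correlated with Pearson's r of 0.68 and Spearman's rho of 0.56, a description across genes, which are not independent and within a species share a pair of libraries.

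**Figure D5:**
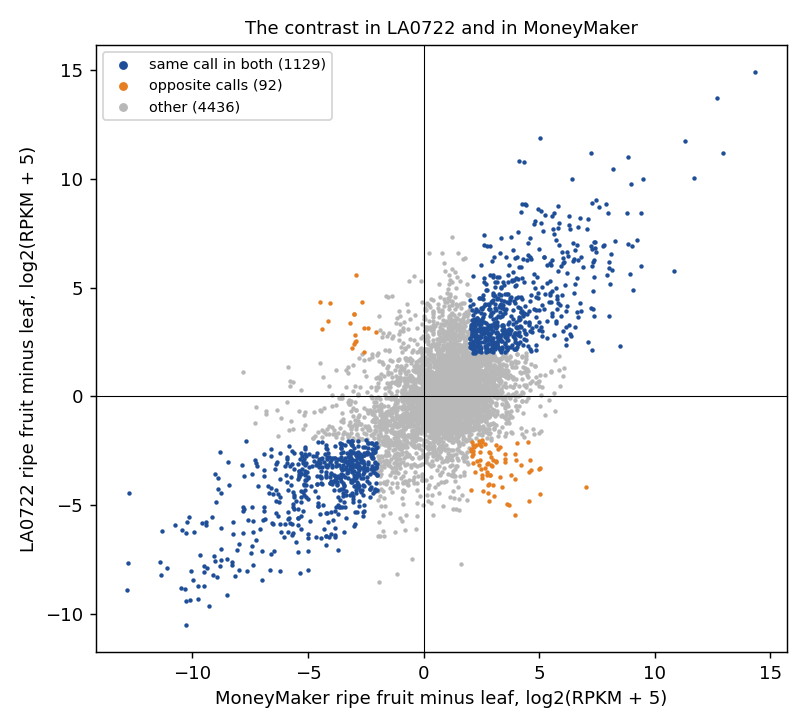
Each point is 1 of the 5657 genes compared in both species. The vertical axis is ripe fruit minus leaf in LA0722 and the horizontal axis the same in MoneyMaker, both as differences of log2(RPKM + 5). Blue points were called the same way in both (590 higher and 539 lower) and orange points in opposite directions (18 and 74). The cloud is centred at 1.11 on the MoneyMaker axis and at 0.07 on the LA0722 axis.

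Opposite calls were few. In all, 18 genes were higher in ripe fruit than in leaf in LA0722 and lower in MoneyMaker, and 74 were lower in LA0722 and higher in MoneyMaker. These were 1.80% of the 1002 higher and 7.49% of the 988 lower genes compared in MoneyMaker. Over all 5657 genes compared in both species, 12.8% were lower and 27.1% higher in MoneyMaker. With each contrast taken relative to its own median the counts were 43 and 28, so which kind was more frequent turned with the centring. Most rested on few reads: 9 of the 18 and 29 of the 74 had 10 reads or more in the higher library of both contrasts. The 74 genes had median levels of 0 RPKM in LA0722 ripe fruit and 74.4 RPKM in LA0722 leaf, and of 80.1 RPKM in MoneyMaker ripe fruit and 5.66 RPKM in MoneyMaker leaf.

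Solyc04g078460 had the most reads of the opposite genes named by the rule. It stood at 232 RPKM in LA0722 ripe fruit (48 reads) and was listed at 0 in LA0722 leaf. With leaf taken at a floor of 3 reads it was 22.8-fold higher. It stood at 22.7 RPKM in MoneyMaker ripe fruit (6 reads) and 204 RPKM in MoneyMaker leaf (76 reads), 9.01-fold lower in ripe fruit with a 95% exact interval of 3.95 to 25.3. The differences were 5.57 in LA0722 and -2.92 in MoneyMaker. Its other MoneyMaker levels were 38.3 RPKM when fruit was mature green, 281 RPKM at breaker, 215 RPKM in flower, 170 RPKM in stem and 54.4 RPKM in root. The gene was thus not specific to an organ in MoneyMaker.

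The position of the called genes was read from the IDs, in which the digits before the letter g name the chromosome. Over chromosomes 1 to 12, between 16.2% (chromosome 5) and 23.7% (chromosome 9) of the compared genes were higher in ripe fruit, and between 15.7% (chromosome 11) and 22.1% (chromosome 8) were lower. Among the 67 compared genes with the digits 00, which mark gene models placed on no chromosome, 34.3% were higher and 25.4% lower, and their median inferred coding length was 471 nt.

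Called genes lay next to each other in the ID order more often than genes compared in general. Of the 1458 higher genes, 279 (19.1%) had an adjacent ID that was also higher, against 11.5% of all genes compared, and of the 1463 lower genes 231 (15.8%) had an adjacent ID that was also lower, against 11.4%. The longest run of higher genes held 5 adjacent IDs on chromosome 7, with 163 to 1747 RPKM in ripe fruit and 0 to 12.3 RPKM in leaf, and 4 of the 5 were also higher in MoneyMaker. The longest run of lower genes held 5 adjacent IDs on chromosome 2, with 0 to 11.9 RPKM in ripe fruit and 267 to 3323 RPKM in leaf, and all 5 were also lower in MoneyMaker. Reads of near-identical neighbouring copies can be divided between them in the counting, so the values of single genes in such runs are uncertain. Solyc10g017980 belongs to a run of 3 higher genes on chromosome 10.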

How the data were processed

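The authors deposited RPKM values for 34727 gene IDs in 9 libraries, with 2 decimals. HTSeq is named in the submitters' processing notes, without a version. Which aligner, genome build, annotation and filters were used is not given in the sources used here, nor how reads of LA0722 were treated against gene models of another species. Per the labels' protocols, cDNA was amplified by PCR and pyrosequenced, and 350000 reads near 400 bp long were aimed at for each library.

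Columns were matched to samples by name, except that MoneyMaker ripe fruit was matched by elimination and MoneyMaker mature green fruit from the word mature alone. Of 41476 genes in the RefSeq gene table, 0 carried an ID of the deposited table, so the planned lists of named genes and the cell type markers were not used. Genes are named by a rule: the 2 of largest difference in each direction, and the opposite genes of largest summed difference. Other genes are given by rank and were picked by their values.

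Whole reads were recovered from the steps of the RPKM values, with lengths taken as multiples of 3, an inference. All 23089 genes above 0 had a solution, and the reads summed to 95.4% to 99.9% of the implied totals. The smallest numbers that fit were kept, so reads and lengths of genes seen in few libraries can be too low. The recovery was also run on data simulated from the recovered lengths and totals themselves, so that run does not test the inferred lengths. Reads gave exact 95% intervals (Clopper-Pearson, conditional on the sum), which cover counting error only. A library listed at 0 was taken at a floor of 3 reads and the other library's reads as exact. Such folds are therefore not lower bounds. PCR copies are not independent molecules.

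Differences of log2(RPKM + 5), the minimum of 25 RPKM and the limit of 2 log2 units were computed with Python 3.11.15, pandas 2.3.3 and scipy 1.17.1. Alternatives changed the pseudocount, minimum, limit, scaling, reads and length. The members, sets and lists were chosen with earlier results of these data known.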

Additional observations from a re-analysis of the deposited data

Results flagged for a closer look

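The contrast of ripe fruit with leaf ran in opposite directions in the 2 species for 18 genes that were higher in LA0722 ripe fruit and lower in MoneyMaker ripe fruit, and for 74 genes that were lower in LA0722 and higher in MoneyMaker. These were 1.80% of the higher and 7.49% of the lower genes that could be compared in MoneyMaker. Over all genes compared in both species, 12.8% were lower and 27.1% higher in MoneyMaker. With 1 library per group, the difference between the species was not tested. In each of the 4 genes below the LA0722 and MoneyMaker differences have opposite signs and both reach 2 log2 units. Of the opposite genes, they are the 2 in each direction with the largest summed size of difference, so they were picked by their values.

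Solyc04g078460 had a difference of 5.57 in LA0722 and -2.92 in MoneyMaker. Solyc02g084430 had 4.35 in LA0722 and -4.49 in MoneyMaker, but only 3 reads in LA0722 ripe fruit and 6 reads in MoneyMaker leaf, and it was listed at 0 in the 7 other libraries. With MoneyMaker ripe fruit taken at a floor of 3 reads, it was 1.42-fold lower there than in leaf. That floor takes the 6 leaf reads as exact, so the fold is not a lower bound. Solyc02g085320 had -4.15 in LA0722, where it was listed at 0 in ripe fruit and had 4 reads in leaf. With LA0722 ripe fruit taken at a floor of 3 reads, the fold toward leaf was 0.94, so no decrease is secured. Its MoneyMaker difference was 7.04, with 651 RPKM (28 reads) in ripe fruit and no read in leaf, 13.1-fold higher by such a floor. Solyc01g087020 had -4.47 in LA0722, with no read in ripe fruit and 6 reads in leaf. By the same floor it was 1.40-fold lower in ripe fruit, which again is not a lower bound. Its MoneyMaker difference was 5.02, with 606 RPKM (31 reads) in ripe fruit and 13.9 RPKM (1 read) in leaf, a fold of 43.6 with a 95% exact interval of 7.26 to 1777.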

How the results depend on the processing

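No paired analysis was possible because the labels give 1 library per group and no replicate numbers, and no library could be left out. Other readings of annotated gene lists were not run, since the IDs could not be paired with names. At 10 reads or more in the higher library, 867 genes were higher and 1141 lower in LA0722 ripe fruit, against 1458 and 1463 without that limit, so the near-equal numbers did not hold there. At equal length that limit asks for a higher RPKM in ripe fruit, the library with fewer reads, and the part of depth was not tested. The interval alternatives and the limit of 10 reads in both contrasts were chosen after seeing the data. Where a value changed, the cause was not tested beyond what each setting itself leaves out.

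With a pseudocount of 20 RPKM, 712 genes were higher and 675 lower in LA0722 ripe fruit, and 992 and 724 in MoneyMaker. The genes higher in both then numbered 318, lower in both 282 and opposite 24. With a minimum of 100 RPKM, the LA0722 counts were 616 higher and 596 lower, and the MoneyMaker counts 1041 and 582, with 301 higher in both, 246 lower in both and 27 opposite. At 1 log2 unit, 2416 were higher and 2428 lower in LA0722, and 3768 higher and 1906 lower in MoneyMaker, with 1319 higher in both, 839 lower in both and 473 opposite. At 3 log2 units, 844 were higher and 832 lower in LA0722, and 909 and 923 in MoneyMaker, with 302, 326 and 26 shared higher, shared lower and opposite. Counting intervals beyond 4 left 436 higher and 439 lower genes in LA0722. Median-ratio size factors gave 1047 higher and 2337 lower genes in MoneyMaker, where the balance of directions turned.

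Opposite calls numbered 161 with a minimum of 10 RPKM or none, 57 without coding lengths under 300 nt, and 38 with at least 10 reads in the higher library, in either form of that limit.

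The median difference over the genes compared, 0.02, changed sign: it was -0.062 with a minimum of 10 RPKM, -0.20 with none, -0.27 with at least 10 reads and -0.11 with equal summed RPKM.

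The leaf set kept its sign, with medians of -4.53 at a pseudocount of 1 RPKM, -2.22 at 20 RPKM, -4.53 at a minimum of 100 RPKM, -2.57 with no minimum and -2.28 with the set chosen by 1 log2 unit. The ripening set did too, with medians of 3.78, 1.90, 4.74, 1.96 and 1.48 under those settings, 2.36 at a minimum of 10 RPKM and 3.68 with at least 10 reads.

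The share of higher genes at 25 RPKM or more in MoneyMaker ripe fruit was 79.1% at a pseudocount of 20 RPKM, 58.2% with a minimum of 10 RPKM or none, 86.9% at 100 RPKM, 69.6% at 1 log2 unit, 61.5% with median-ratio size factors, 63.4% with equal sums and 75.5% with at least 10 reads. The share of lower genes at that level in MoneyMaker leaf was 57.2% at a pseudocount of 1 RPKM, 79.9% at 20 RPKM, 51.6% with a minimum of 10 RPKM or none, 84.7% at 100 RPKM, 57.2% at 1 log2 unit, 67.1% at 3 log2 units, 71.1% with median-ratio size factors, 64.99% with upper-quartile scaling and 67.0% with at least 10 reads. The shares over all genes compared at these settings are not given here, so none of these values shows an excess. At the main setting they were 66.5% of higher genes against 62.8% of all genes in MoneyMaker ripe fruit. In MoneyMaker leaf they were 59.9% of lower genes against 48.4%.

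Higher genes with an adjacent higher ID made up 14.2% at a pseudocount of 20 RPKM, 13.1% at a minimum of 100 RPKM, 23.3% at 1 log2 unit, 15.9% at 3 log2 units, 12.6% with at least 10 reads and 14.7% without coding lengths under 300 nt. Over all genes compared at the same settings the shares were 5.71%, 6.02%, 18.7%, 6.62%, 7.22% and 9.54%. For lower genes they were 10.2%, 12.2%, 21.7%, 10.8%, 11.7% and 13.4%, against 5.31%, 5.99%, 18.6%, 6.42%, 9.16% and 10.1% over all genes compared. The shares over all genes at these settings were added after seeing the data.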
